A study of Mus musculus with 32 samples.

Results

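Ribosome-bound RNA of spinal cord astrocytes was compared between 5 weeks and 3 weeks after fracture, 2 times after an injury used in mice to model complex regional pain syndrome (CRPS). The comparison took the 12 pull-down libraries whose titles give those times, 6 at each time, out of the 32 libraries of the series. Uninjured and 7-week Trap libraries are in neither group, but they share the fit and so bear on its filter and its p-values. The series holds 24 pull-down ("Trap") libraries and 8 whole-tissue ("Input") libraries from homogenised lumbar cord of both sexes, uninjured or 3, 5 or 7 weeks after fracture. Each sex gave 3 Trap libraries and 1 Input library per state.

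All mice, uninjured controls included, carried Aldh1l1-CreER and Rpl22-HA, which the sample labels spell Aldhl1l-CreER;Rpl22-HA. Aldh1l1 codes for a folate enzyme whose promoter drives an inducible Cre recombinase in astrocytes, and Cre switches on an HA-tagged copy of the ribosomal protein Rpl22. Ribosomes pulled down with an antibody to the tag bring along the RNA they hold, so a Trap library reads mostly astrocyte RNA and an Input library reads all cell types. The groups were the 5-week fracture group, with 3 female and 3 male Trap libraries, and the 3-week fracture group, with the same numbers. Age, strain background and tamoxifen dosing are not given in the sources used here. The labels do not say that each library came from its own animal, so p-values here cover the spread from library to library and no more.

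Astrocytes clear glutamate and potassium from around synapses, couple to each other through gap junctions and wrap blood vessels with their endfeet. After injury they can become reactive, a state known for more intermediate filament, complement and acute-phase RNA and for signalling through Stat3, NF-kB and Notch. In this kind of model a limb bone is broken and the spinal cord itself is not injured.

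The 12 libraries held 17604714 to 22239706 estimated counts each, so a level of 1 CPM stood for about 18 counts. CPM, the unit of all levels here, is a gene's count relative to the scaled total of its library, without correction for gene length. Of 15913 genes set against Input, 7073 (44.4%) were higher and 6954 (43.7%) lower in Trap. Trap levels of the 20 astrocyte markers exceeded Input levels by a median of 3.30 on the log2 scale, and the neuron markers lay below Input by a median of -3.96. By these markers the pull-down held the labelled cell type. Of the 12 libraries, 2 stood apart on the first principal component, 1 at each time. Female 5 weeks replicate 3 had a score of 39.7 and female 3 weeks replicate 3 a score of 38.4, while no other library exceeded 0.912. The 3-week library of the pair also had the highest share of mitochondrially encoded counts, 0.489%, in a range that began at 0.13%. Of the 40 gene lists described here, 4 had a median change of the other sign without female 5 weeks replicate 3 and 13 without female 3 weeks replicate 3, and these medians are given with their lists.

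Across 15380 genes, 2 were called at an adjusted p under 0.05 (0.013%, edgeR quasi-likelihood test with Benjamini-Hochberg adjustment), and both were lower at 5 weeks. They were Nnat and Tmem176a. No gene was called higher at 5 weeks. At an unadjusted p under 0.05 there were 461 genes higher (3%) and 445 lower (2.89%), 5.89% in all, and another count model, DESeq2, called 15 genes, 7 higher and 8 lower. The median log2 change of all genes was 0.0014. A fit of only the 12 libraries of both times called 3 genes, Nnat, Tmem176a and, on the higher side, Tsc22d3. Leaving out 1 of the 12 libraries at a time gave 0 to 3 calls. There were 0 calls without replicate 1 or without replicate 2 of either sex at either time. There was 1 without male 5 weeks replicate 3, and there were 3 without female 5 weeks replicate 3, female 3 weeks replicate 3 or male 3 weeks replicate 3. For 33 genes (0.215%) all 6 libraries of 5 weeks lay above all 6 of 3 weeks, and for 42 genes (0.273%) they all lay below.

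Nnat (ENSMUSG00000067786.16) codes for neuronatin, a small proteolipid of the endoplasmic reticulum, and is an imprinted gene read from the paternal copy. It lies at chr2:157560078-157562522 on the plus strand in GRCm38, inside the gene Blcap, which runs on the minus strand. The genes share no exon base there. Nnat had 273 CPM in the lowest, 317 in the median and 366 in the highest library of 5 weeks, against 380, 431 and 534 CPM at 3 weeks. All 6 libraries of 5 weeks were below all 6 of 3 weeks. The fitted log2 change was -0.50 ± 0.0768 (adjusted p = 0.0141), with means of 317 ± 31.2 CPM at 5 weeks and 452 ± 63.1 CPM at 3 weeks (SD, n = 6 each). Leaving out 1 library moved it between -0.55 and -0.47, with edgeR adjusted p-values of 0.00389 to 0.104, and kept the call in 4 of 12 cases. Blcap, named here because it encloses Nnat, had 52.0 ± 7.59 CPM at 5 weeks and 53.3 ± 4.69 CPM at 3 weeks (SD, n = 6 each), a log2 change of -0.03 ± 0.0779.

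The female libraries had 301.2, 323.9 and 365.7 CPM of Nnat at 5 weeks, against 523.2, 533.6 and 447.1 CPM at 3 weeks. The male libraries had 309.4, 272.6 and 329.5 CPM at 5 weeks, against 413.5, 414.0 and 379.8 CPM at 3 weeks. The 3 female libraries of 3 weeks held the highest values of the 12. The log2 change was -0.60 ± 0.109 within females and -0.41 ± 0.109 within males, and the difference between the sexes was -0.20 ± 0.153 (unadjusted p = 0.212).

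Tmem176a (ENSMUSG00000023367.14) and Tmem176b (ENSMUSG00000029810.15) code for related proteins that span the membrane several times and lie head to head on chromosome 6. Tmem176a spans chr6:48840919-48847071 on the plus strand and Tmem176b spans chr6:48833818-48841496 on the minus strand, with 81 exon bases in common on opposite strands. Whether counting used the strand is not given in the sources used here, so reads from those bases could be assigned to either gene. Tmem176a had 86.1 CPM in the lowest, 88.4 in the median and 102 in the highest library of 5 weeks, against 115, 124 and 151 CPM at 3 weeks. The groups did not overlap, and the gene fell by 0.50 ± 0.0860 on the log2 scale (adjusted p = 0.0378), to 91.3 ± 6.17 CPM at 5 weeks, against 130 ± 15.6 CPM at 3 weeks (SD, n = 6 each). Leaving out 1 library gave log2 changes of -0.55 to -0.48, with edgeR adjusted p-values of 0.00751 to 0.201, and kept the call in 2 of 12 cases.

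Tmem176b, which lies outside the rule for named genes and was chosen after its values were seen, had 192, 204 and 213 CPM at 5 weeks, against 227, 241 and 301 CPM at 3 weeks. Its groups did not overlap either, but its log2 change of -0.31 ± 0.0958 was not called (adjusted p = 0.550). Within females the changes were -0.64 ± 0.122 for Tmem176a and -0.37 ± 0.135 for Tmem176b, and within males they were -0.36 ± 0.122 and -0.24 ± 0.135. In each sex the larger change was that of Tmem176a.

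**Figure D1:**
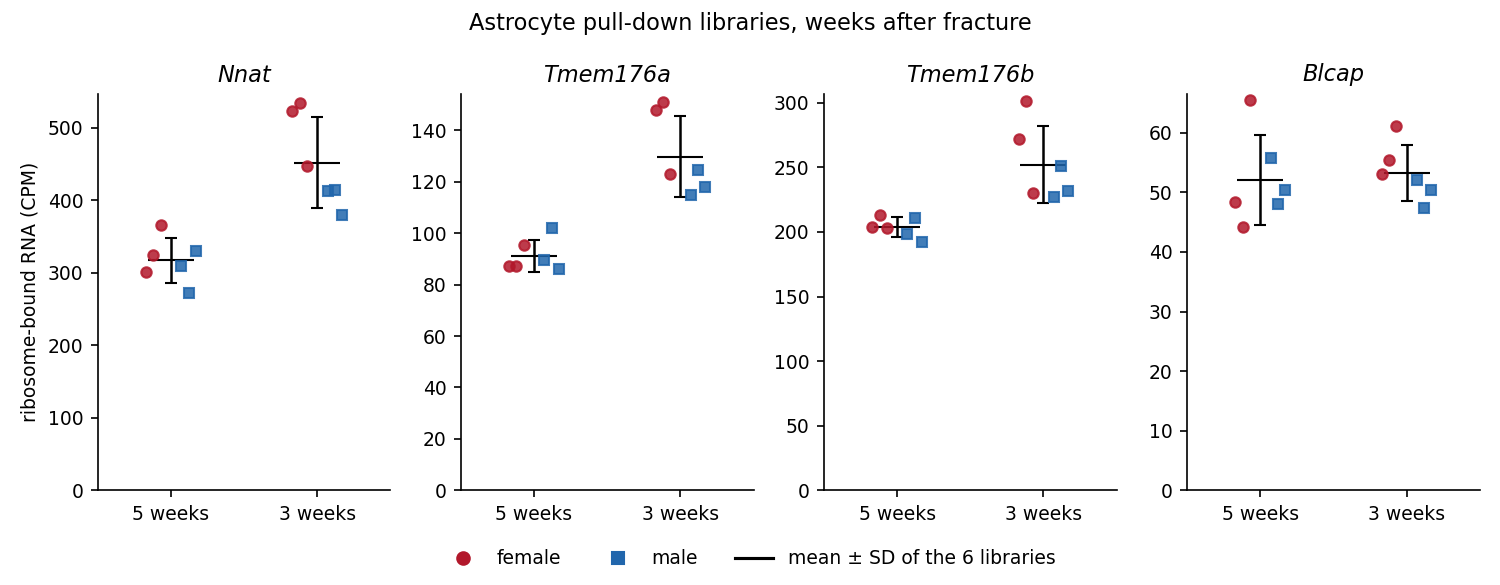
Ribosome-bound RNA (CPM, y axis from 0) of Nnat, Tmem176a, Tmem176b and Blcap in each of the 12 Trap libraries, with 5 weeks left of 3 weeks; circles are females, squares are males, and lines are the mean ± SD of the 6 libraries. For Nnat, Tmem176a and Tmem176b every library of 5 weeks lies below every library of 3 weeks, while Blcap averages 52.0 CPM at 5 weeks and 53.3 CPM at 3 weeks.

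The windows from 250 bases before to 50 bases after the start of Nnat, Tmem176a and Tmem176b are shown because these are the called genes and their paired neighbour. They come from RefSeq on GRCm38.p6, at chr2:157559828-157560127 on the plus strand for Nnat, chr6:48841233-48841532 on the plus strand for Tmem176a and chr6:48841088-48841387 on the minus strand for Tmem176b. Capitals mark each CG dinucleotide in Nnat. In Tmem176a and Tmem176b they mark the 155 bases, chr6:48841233-48841387, that lie in both windows, read on opposite strands.
Nnat: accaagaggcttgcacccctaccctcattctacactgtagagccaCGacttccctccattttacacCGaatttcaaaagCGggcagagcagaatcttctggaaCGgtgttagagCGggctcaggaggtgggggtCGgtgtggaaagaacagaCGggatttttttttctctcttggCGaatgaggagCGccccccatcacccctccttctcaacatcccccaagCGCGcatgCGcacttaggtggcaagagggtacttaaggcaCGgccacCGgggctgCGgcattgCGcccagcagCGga
Tmem176a: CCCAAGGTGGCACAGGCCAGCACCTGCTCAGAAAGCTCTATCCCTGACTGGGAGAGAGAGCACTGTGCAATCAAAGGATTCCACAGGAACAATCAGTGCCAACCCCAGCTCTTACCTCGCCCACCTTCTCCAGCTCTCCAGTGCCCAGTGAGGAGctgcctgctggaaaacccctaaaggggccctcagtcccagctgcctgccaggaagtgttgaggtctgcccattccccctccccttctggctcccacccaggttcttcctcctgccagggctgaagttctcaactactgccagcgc
Tmem176b: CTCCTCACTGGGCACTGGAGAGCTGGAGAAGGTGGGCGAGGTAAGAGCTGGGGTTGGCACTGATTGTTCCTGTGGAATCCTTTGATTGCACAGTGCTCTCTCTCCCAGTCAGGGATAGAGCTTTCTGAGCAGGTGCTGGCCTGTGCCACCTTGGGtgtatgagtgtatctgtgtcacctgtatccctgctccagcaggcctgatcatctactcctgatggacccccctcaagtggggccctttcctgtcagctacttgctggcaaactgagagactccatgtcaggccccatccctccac

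The Nnat window had 17 CG sites and a GC content of 57.3%, against a median of 7 CG sites over 27025 promoter windows, 31.9% of which had at least as many. The Tmem176a window had 2 CG sites, and 85.4% of all windows had at least as many. The Tmem176b window had 1, and 94.2% of all windows had at least as many. The sites describe these sequences and were not measured here.

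Among genes lower at 5 weeks, the 10 of smallest p were Nnat and Tmem176a and 8 that were not called. All 10 were picked for small p in the same 12 libraries, so a lack of overlap is partly built in for them. Over all genes, 42 of 15380 (0.273%) lay lower without overlap. Gpx3, a secreted glutathione peroxidase that removes peroxides, had the largest log2 change of those above 10 CPM. It had 18.2, 20.8 and 23.7 CPM (lowest, median, highest) at 5 weeks, against 23.9, 39.8 and 77.8 CPM at 3 weeks, and the groups did not overlap. Its log2 change was -1.07 ± 0.202 (adjusted p = 0.190), and the highest value was that of female 3 weeks replicate 2. Of 12 fits that left out 1 library, Gpx3 was called in 1, that without male 3 weeks replicate 3. The edgeR adjusted p-values of the 12 ran from 0.0329 to 0.377. DESeq2 also called it (adjusted p = 8.18e-05).

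Fgfrl1, an FGF receptor relative that binds the ligands without a kinase domain, had 113, 137 and 157 CPM at 5 weeks, against 164, 189 and 199 CPM at 3 weeks. The groups did not overlap and the log2 change was -0.43 ± 0.0963 (adjusted p = 0.196). Hnrnpdl, an RNA-binding protein that acts in splicing, had 88.6, 99.3 and 105 CPM at 5 weeks, against 106, 123 and 129 CPM at 3 weeks. Its groups also did not overlap (log2 change -0.31 ± 0.0703, adjusted p = 0.207). Gadl1, a decarboxylase related to the GABA-making enzymes, had 4.48, 4.88 and 5.00 CPM at 5 weeks, against 5.09, 7.17 and 8.60 CPM at 3 weeks, likewise without overlap.

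Hes1, a transcriptional repressor switched on by Notch, had 8.62, 11.2 and 11.9 CPM at 5 weeks, against 11.4, 14.1 and 18.6 CPM at 3 weeks, with a log2 change of -0.50 ± 0.128 (adjusted p = 0.405). Tgif2, a homeobox repressor in TGF-beta signalling, averaged 2.28 ± 0.592 CPM at 5 weeks and 4.55 ± 1.69 CPM at 3 weeks (SD, n = 6 each). It shares 2171 exon bases with a transcript on the opposite strand, so its reads are uncertain. Dkk3, a secreted glycoprotein of the Dickkopf family, averaged 51.0 ± 3.57 CPM at 5 weeks and 67.0 ± 11.8 CPM at 3 weeks, and Adcyap1, the neuropeptide PACAP, averaged 0.574 ± 0.369 CPM at 5 weeks and 1.70 ± 0.954 CPM at 3 weeks (SD, n = 6 each). Both were lower in Trap than in Input, by -1.26 for Dkk3 and -4.55 for Adcyap1 on the log2 scale, so in the pull-down they need not come from astrocytes. The part of other cells in their values was not tested.

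None of the 10 genes of smallest p on the higher side was called. Of these, 3 had groups that did not overlap, as 33 of 15380 genes (0.215%) did on that side. The genes were picked for small p in the same 12 libraries, so a lack of overlap is partly built in. Bcam, a laminin receptor of the basement membrane, had 44.3, 48.0 and 51.3 CPM at 5 weeks, against 33.8, 39.0 and 43.6 CPM at 3 weeks (log2 change 0.29 ± 0.0625, adjusted p = 0.194). Tlr2, a receptor for bacterial lipoproteins, had 14.0, 15.9 and 18.9 CPM at 5 weeks, against 11.6, 11.8 and 13.3 CPM at 3 weeks (0.43 ± 0.0930, adjusted p = 0.194). Eln, the elastic fibre protein elastin, had 12, 12.9 and 14.2 CPM at 5 weeks, against 5.33, 9.41 and 10.4 CPM at 3 weeks (0.58 ± 0.143, adjusted p = 0.325).

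Among the other genes of this kind, Arhgef37, a member of a family of guanine nucleotide exchange factors, had the largest log2 change, 0.67 ± 0.143 (adjusted p = 0.194), with 16.4, 21.0 and 24.7 CPM at 5 weeks, against 10.3, 12.4 and 16.7 CPM at 3 weeks. Svil, which ties actin to the plasma membrane, had 10.2, 20.5 and 24.2 CPM at 5 weeks, against 10.2, 12.2 and 15.4 CPM at 3 weeks (0.65 ± 0.145, adjusted p = 0.196). Its groups overlapped through female 5 weeks replicate 3, the library with the lowest value at that time. Without that library Svil was called (edgeR adjusted p = 0.00176). This was the only call among 12 fits that left out 1 library, whose edgeR adjusted p-values reached 0.614. Bbox1, which makes carnitine in its last step, averaged 172 ± 14.0 CPM at 5 weeks and 135 ± 12.7 CPM at 3 weeks (SD, n = 6 each).

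Igsf1, a membrane glycoprotein of the immunoglobulin superfamily, averaged 136 ± 25.9 CPM at 5 weeks and 97.9 ± 14.6 CPM at 3 weeks. Shisa9, an auxiliary protein of AMPA glutamate receptors, averaged 68.6 ± 3.86 CPM at 5 weeks and 54.1 ± 7.03 CPM at 3 weeks. Galnt18, of the family that starts O-glycan chains, averaged 80.9 ± 7.18 CPM at 5 weeks and 60.5 ± 13.6 CPM at 3 weeks, and Fmod, a collagen-binding proteoglycan, averaged 15.1 ± 2.95 CPM at 5 weeks and 10.4 ± 2.05 CPM at 3 weeks (SD, n = 6 each throughout). Their groups overlapped, and their log2 changes ran from 0.34 for Shisa9 to 0.53 for Fmod.

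**Figure D2:**
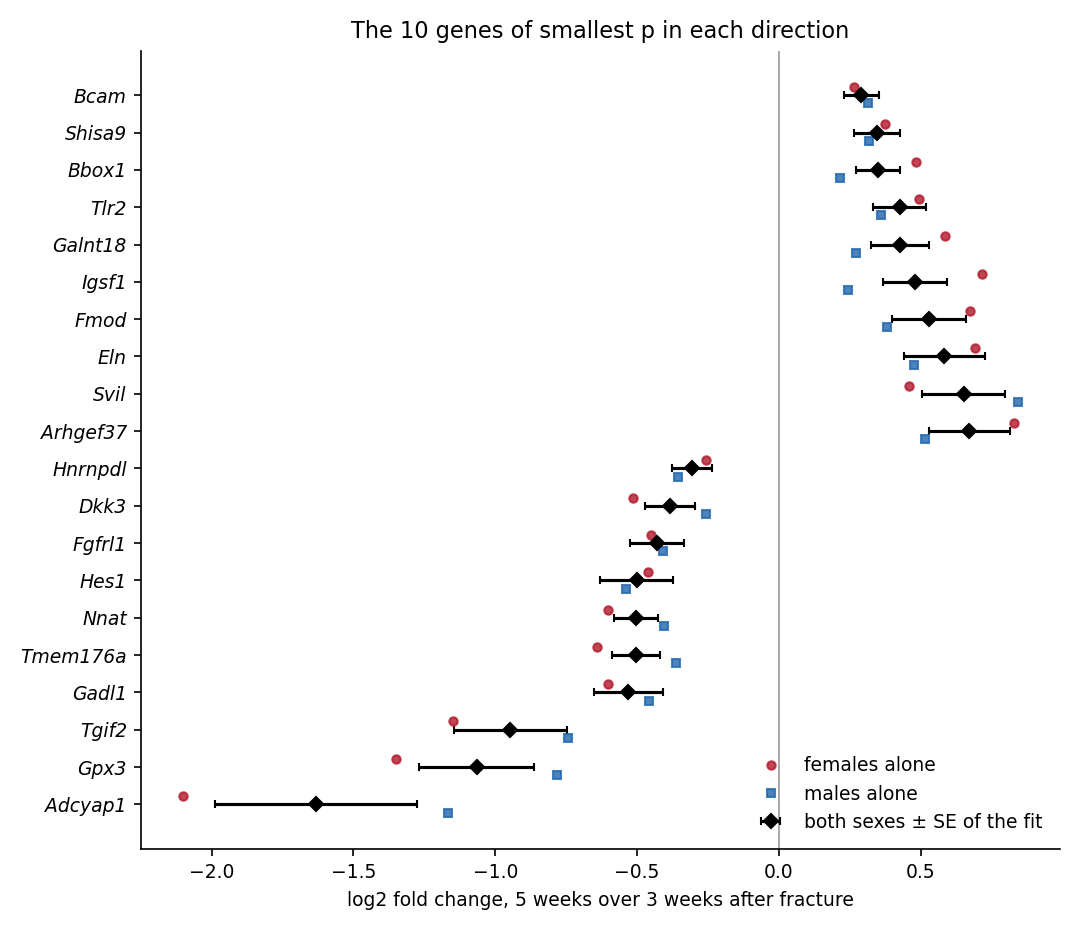
Log2 fold change of 5 weeks over 3 weeks (x axis) for the 10 genes of smallest p in each direction; diamonds are both sexes with the SE of the fit, circles females alone and squares males alone. Only Nnat and Tmem176a are called, at -0.50 each. The values within females and within males lie on the same side of 0 for all 20 genes, against 56.8% of all genes. The 20 were ranked on the average of both sexes, so this is largely built in.

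Promoter windows in RefSeq matched 13 of these 20 genes, 5 higher and 8 lower. The E-box CACGTG, read on either strand, lay in 1 of the 8 lower (Fgfrl1) and in 0 of the 5 higher, against 7.24% of all 27025 windows. TGACG on either strand, the core of the cyclic AMP element, lay in 1 of 5 higher (Igsf1) and 1 of 8 lower (Adcyap1), against 21.0% of all windows. The glucocorticoid element, GAACA and TGTTC with any 3 bases between them, lay in none of the 13 and in 0.0481% of all windows. The sequences printed for Nnat, Tmem176a and Tmem176b held none of the 3 motifs.

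Against uninjured libraries in the same fit, 17 genes were called at 3 weeks (0.111%), 0 at 5 weeks and 0 at 7 weeks. The 3-week libraries take part in that comparison and in the comparison of 5 with 3 weeks, so opposite signs are partly built in and the values are only set side by side. Against uninjured on the log2 scale, Nnat had 0.00 at 5 weeks and 0.50 at 3 weeks (adjusted p = 0.0051 at 3 weeks). Over time it averaged 318 CPM in uninjured libraries, 452 CPM at 3 weeks, 317 CPM at 5 weeks and 325 CPM at 7 weeks. Tmem176a averaged 96.9 CPM in uninjured libraries, 130 CPM at 3 weeks, 91.3 CPM at 5 weeks and 102 CPM at 7 weeks. Tmem176a was not among the 17 (log2 0.42 at 3 weeks, adjusted p = 0.0506).

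Fgfrl1 was 0.07 above uninjured at 5 weeks and 0.50 above at 3 weeks. Rassf10, of a family of Ras-association proteins, was 0.33 above at 5 weeks and 0.89 above at 3 weeks, with 4.0 ± 0.941 CPM at 5 weeks and 5.89 ± 0.925 CPM at 3 weeks (SD, n = 6 each). Smoc1, a secreted calcium-binding matricellular protein, was 0.35 above at 5 weeks and 0.62 above at 3 weeks. The unnamed gene model 2900052N01Rik was 0.25 above at 5 weeks and 0.81 above at 3 weeks. Between 5 and 3 weeks the log2 change was -0.56 ± 0.161 for Rassf10, -0.28 ± 0.10 for Smoc1 and -0.55 ± 0.142 for 2900052N01Rik, and none was called.

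On the other side, Rflnb, an actin regulator that binds filamin, had a log2 value against uninjured of -0.40 at 5 weeks and -0.75 at 3 weeks. It had 22.9, 24.9 and 26.9 CPM at 5 weeks, against 15.1, 19.8 and 22.4 CPM at 3 weeks, without overlap, and the log2 change between those times was 0.35 ± 0.0959 (adjusted p = 0.415). Aqp6, an aquaporin that also passes anions, had -0.30 at 5 weeks and -0.73 at 3 weeks against uninjured, and 0.44 ± 0.109 between 5 and 3 weeks. Svil had -0.17 at 5 weeks and -0.82 at 3 weeks, and Galnt18 had -0.12 at 5 weeks and -0.55 at 3 weeks. Bcam had -0.04 at 5 weeks and -0.33 at 3 weeks.

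Tns3, a tensin of focal adhesions, had -0.16 at 5 weeks and -0.47 at 3 weeks against uninjured. Its level was 685 ± 53.2 CPM at 5 weeks and 552 ± 41.7 CPM at 3 weeks (SD, n = 6 each), a log2 change of 0.31 ± 0.0849. Gja1, the gap junction protein connexin 43, had -0.12 at 5 weeks and -0.33 at 3 weeks. Its 6 libraries of 5 weeks ran from 2097 to 2662 CPM, against 1930 to 2421 CPM at 3 weeks (log2 change 0.21 ± 0.0644). Mat2a, which makes S-adenosylmethionine, had -0.37 at 5 weeks and -0.64 at 3 weeks, with 0.27 ± 0.106 between 5 and 3 weeks. Its counts in the table are identical to those of a second identifier, ENSMUSG00000104463.2, so 2 of the 17 are 1 signal. Ky had -0.27 at 5 weeks and -0.72 at 3 weeks, Amhr2, a receptor of anti-Müllerian hormone, had -0.34 at 5 weeks and -0.62 at 3 weeks, and St14, a membrane protease, had -0.46 at 5 weeks and -1.94 at 3 weeks. St14 was below 1 CPM in each group.

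**Figure D3:**
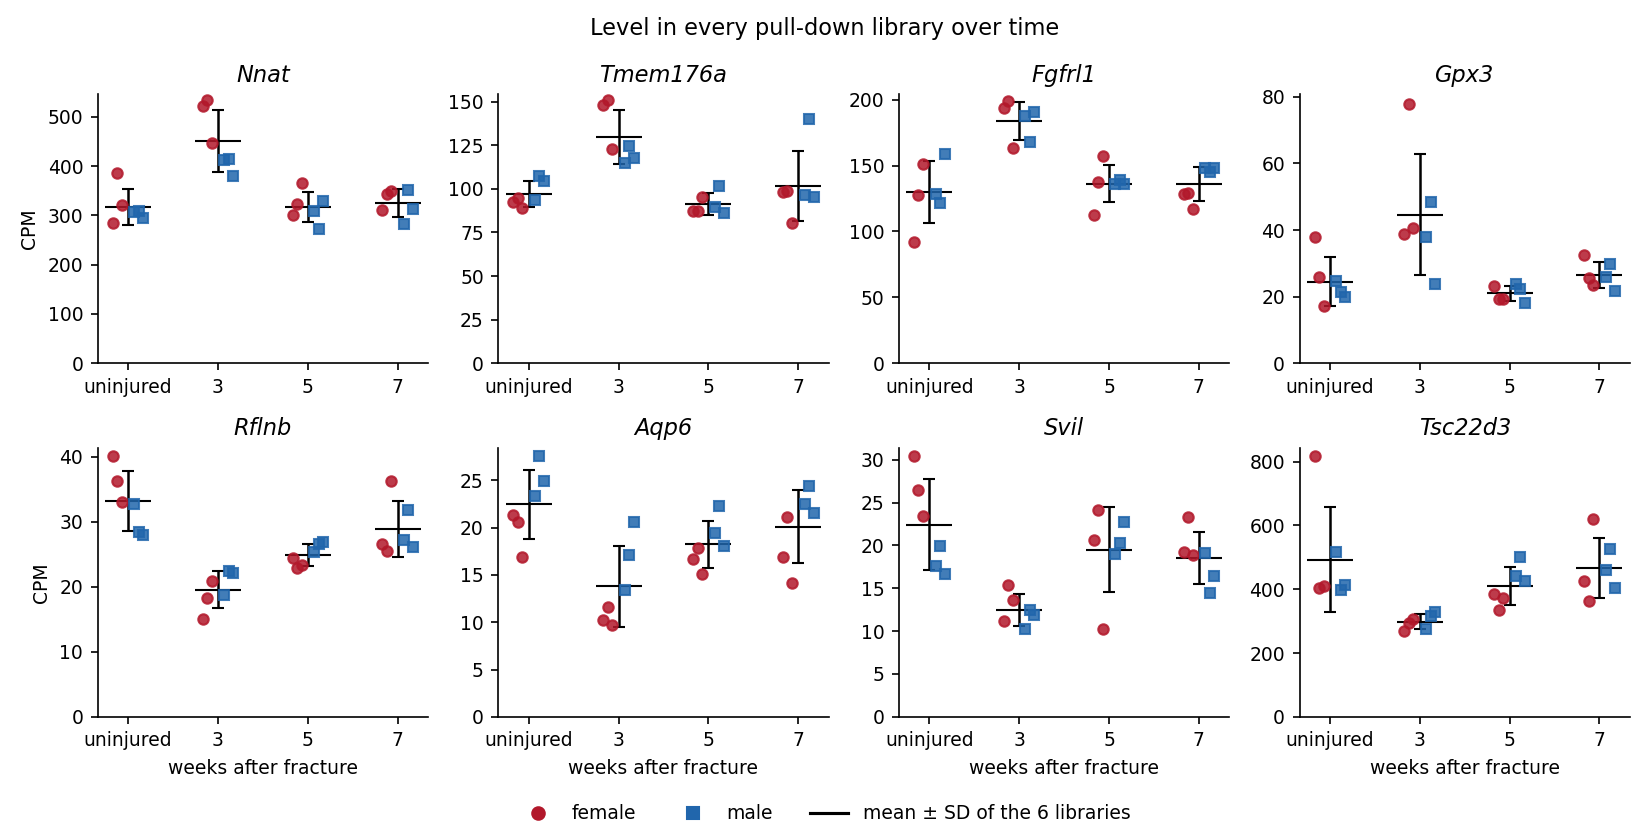
CPM (y axes from 0) of 8 genes in all 24 Trap libraries of uninjured mice and of mice 3, 5 and 7 weeks after fracture; circles are females, squares are males, and lines are the mean ± SD of 6 libraries. Nnat averages 318, 452, 317 and 325 CPM in that order, so its 3-week libraries are the high ones, while Rflnb has its low libraries at 3 weeks.

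Genes of the reactive state were followed in 14 pan-reactive astrocyte genes. None was called, 5 changes were positive and 9 negative, where 50.3% of all genes were positive, and the median was -0.18, against 0.0014 over all genes. Gfap, the main intermediate filament protein of astrocytes, had 9462, 10754 and 11707 CPM (lowest, median, highest) at 5 weeks, against 10923, 12069 and 15491 CPM at 3 weeks. The groups overlapped and the log2 change was -0.21 ± 0.0792 (adjusted p = 0.737). Serpina3n, a protease inhibitor of the acute phase that was chosen after its values were seen, had 93.8, 100 and 113 CPM at 5 weeks, against 114, 123 and 163 CPM at 3 weeks. It showed no overlap, but its log2 change of -0.37 ± 0.136 was not called (adjusted p = 0.728), and it belongs to a cluster of similar genes that could share reads.

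Of the other pan-reactive genes, Aspg had a log2 change of -0.32 ± 0.116. Nes, the filament protein nestin, went the other way, with 4.71 ± 1.32 CPM at 5 weeks and 2.96 ± 1.04 CPM at 3 weeks (SD, n = 6 each; log2 change 0.68 ± 0.220, adjusted p = 0.584). The pan-reactive median was -0.37 within females and -0.09 within males. In the 10 complement genes, 5 changes were positive and 5 negative, and the median of 0.004 was -0.10 without female 5 weeks replicate 3 and -0.04 without female 3 weeks replicate 3. C4b, a complement component, averaged 188 ± 53.4 CPM at 5 weeks and 306 ± 163 CPM at 3 weeks (SD, n = 6 each; log2 change -0.64 ± 0.250). Its near-identical neighbour C4a could share its reads.

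For the interferon response, 16 of 21 changes were negative, with a median of -0.14. H2-K1, a class I MHC chain of a multigene family, had 181, 187 and 202 CPM at 5 weeks, against 198, 211 and 239 CPM at 3 weeks (log2 change -0.19 ± 0.0610). Isg15, a ubiquitin-like protein, had -0.63 ± 0.343. The interferon median was -0.24 within females and -0.03 within males. It was -0.02 without female 3 weeks replicate 1.

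In cytokine and NF-kB signalling, 12 of 16 changes were negative, with a median of -0.11. Of the 16, 4 had an unadjusted p under 0.05 on the lower side, where 2.89% of all genes did. That count may be partly built in, since the lists were chosen with earlier results of these data known. Stat3, which carries the signal of gp130 cytokines into the nucleus, had 108, 133 and 136 CPM at 5 weeks, against 127, 165 and 230 CPM at 3 weeks (log2 change -0.40 ± 0.101, adjusted p = 0.405). Without female 3 weeks replicate 3 it was called (edgeR adjusted p = 0.00711). This was the only call of Stat3 among 12 fits that left out 1 library, whose edgeR adjusted p-values reached 0.742. Tnfrsf1a, a receptor of tumour necrosis factor, had 80.1, 85.6 and 93.1 CPM at 5 weeks, against 88.6, 103 and 122 CPM at 3 weeks (-0.28 ± 0.0761, adjusted p = 0.407). Osmr, the oncostatin M receptor, and Tnfaip3, an inhibitor of NF-kB, were chosen after their values were seen, and had log2 changes of -0.45 ± 0.184 and -0.74 ± 0.289. The median was -0.15 within females and -0.14 within males.

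In Notch signalling, 9 of 14 changes were negative (median -0.10), where 49.7% of all genes were. On the lower side 4 had an unadjusted p under 0.05, where 2.89% of all genes did. Besides Hes1, these were Hes5, another target of Notch, Lfng, which adds sugars to Notch receptors, and Nrarp, a feedback inhibitor, the last 2 named after their values were seen. Hes5 averaged 4.87 ± 1.65 CPM at 5 weeks and 7.06 ± 0.897 CPM at 3 weeks (SD, n = 6 each; log2 change -0.55 ± 0.202). Its highest library of 5 weeks, at 8.06 CPM, was female 5 weeks replicate 3. In FGF signalling, 9 of 14 changes were negative (median -0.07), and 4 again had an unadjusted p under 0.05 on the lower side, against the same 2.89%. They were Fgfrl1, the receptor Fgfr1 and the feedback inhibitors Spry1 and Spry2, which were named after their values were seen. Such counts were not particular to these lists. On the lower side, 4 of 14 pan-reactive, 4 of 19 circadian clock and 4 of 17 immediate early genes also had an unadjusted p under 0.05. All these counts may be partly built in, since the lists were chosen with earlier results of these data known. Fgfrl1 was also called at 3 weeks against uninjured, a comparison that uses the same 3-week libraries. Fgfr1 averaged 120 ± 11.5 CPM at 5 weeks and 141 ± 18.3 CPM at 3 weeks (SD, n = 6 each; log2 change -0.23 ± 0.0805).

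Genes of the mature astrocyte's transport roles showed small changes. In the gap junction, potassium and water list 14 of 16 changes were positive with a median of 0.05, and in glutamate and GABA handling 13 of 16 were positive with a median of 0.08. Aqp4, the water channel of the endfeet, averaged 2504 ± 177 CPM at 5 weeks and 2437 ± 180 CPM at 3 weeks. Slc1a2, the main glutamate transporter, averaged 11202 ± 1807 CPM at 5 weeks and 10871 ± 1708 CPM at 3 weeks, and Aldh1l1 averaged 680 ± 69.9 CPM at 5 weeks and 670 ± 94.7 CPM at 3 weeks (SD, n = 6 each throughout). The log2 changes were 0.04 ± 0.0827, 0.04 ± 0.125 and 0.02 ± 0.0867 in the same order. Abat, the GABA transaminase, had 0.19 ± 0.0793.

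The gap junction, potassium and water median was -0.004 without female 3 weeks replicate 3, so its sign rests on that library, and the glutamate and GABA handling median was 0.02 without it. The library of 5 weeks that stands apart, female replicate 3, was the lowest of its group for Slc1a2, at 7532 CPM, as female replicate 3 was at 3 weeks, at 7501 CPM. Over the whole astrocyte marker list 13 changes were positive and 7 negative, with a median of 0.04, or -0.007 without female 3 weeks replicate 3.

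The glucocorticoid response list had 17 of 21 changes positive and a median of 0.09, and leaving out any 1 library gave 0.07 to 0.17. Tsc22d3, which codes for the glucocorticoid-induced leucine zipper, had 335, 405 and 501 CPM at 5 weeks, against 268, 300 and 328 CPM at 3 weeks. All libraries of 5 weeks were above all of 3 weeks (log2 change 0.45 ± 0.149, adjusted p = 0.618). In the fit of only the 12 libraries it was called (edgeR adjusted p = 0.0349). Klf15, a metabolic transcription factor outside this list that was chosen after its values were seen, did not overlap either, with 65.2 ± 4.32 CPM at 5 weeks and 55.2 ± 2.79 CPM at 3 weeks (SD, n = 6 each; 0.24 ± 0.133). Cdkn1a, a cell cycle inhibitor in the list, had 0.49 ± 0.211. The glucocorticoid median in Input was 0.24.

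Matrix and adhesion lists had more positive than negative changes. Of 24 extracellular matrix and matricellular genes 20 changes were positive (median 0.10), and of 20 actin and focal adhesion genes 14 were positive (median 0.08), with 4 of the 20 at an unadjusted p under 0.05 on the higher side, where 3% of all genes were. These 4 were Svil, Tns3, Rflnb and, named after its values were seen, Tns1. Svil, Tns3 and Rflnb were also called at 3 weeks against uninjured, a comparison in which the same 3-week libraries take part. The lists were chosen with earlier results of these data known, so this count may be partly built in. Bcan, a chondroitin sulphate proteoglycan of perineuronal matrix, averaged 1881 ± 210 CPM at 5 weeks and 1626 ± 189 CPM at 3 weeks (SD, n = 6 each; log2 change 0.21 ± 0.0735). The actin median was -0.02 within females and 0.15 within males. Without female 5 weeks replicate 3 the matrix median was 0.17 and the actin median 0.11, and without female 3 weeks replicate 3 both were 0.02.

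Metabolic lists had medians from 0.003 to 0.09. In glycogen metabolism 16 of 19 changes were positive (median 0.09, or 0.02 without female 5 weeks replicate 2), with Pgm2, a phosphoglucomutase, at 0.28 ± 0.0940 and Phkb, a subunit of phosphorylase kinase, at 0.17 ± 0.0833. In the tricarboxylic acid cycle and pyruvate list 21 of 28 were positive (median 0.04), and in glycolysis and lactate 12 of 22 (median 0.008). Pfkp, a phosphofructokinase, averaged 701 ± 98.5 CPM at 5 weeks and 571 ± 69.9 CPM at 3 weeks (SD, n = 6 each; log2 change 0.30 ± 0.103), and it shares 748 exon bases with Pitrm1 on the opposite strand. Fatty acid oxidation had 14 positive and 14 negative changes (median 0.003), led by the acyl-CoA synthetase Acsl3 at 0.20 ± 0.0788. Nuclear genes of oxidative phosphorylation had 30 of 48 positive (median 0.03). Cholesterol synthesis and transport had 15 of 27 positive (median 0.01), and fatty acid and lipid synthesis 12 of 23 (median 0.03). Without female 5 weeks replicate 3 the oxidative phosphorylation median was -0.06 and the cholesterol median -0.02. Without female 3 weeks replicate 3 the medians were -0.007 for glycolysis, -0.007 for cholesterol, -0.03 for fatty acid oxidation and -0.03 for lipid synthesis. No member of any of these lists was called.

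In oxidative stress and glutathione 12 of 22 changes were positive (median 0.001, or -0.03 without female 5 weeks replicate 3 and -0.01 without female 3 weeks replicate 3). Gsr, which reduces oxidised glutathione, had 16.5, 17.3 and 18.4 CPM at 5 weeks, against 19.1, 20.9 and 22.2 CPM at 3 weeks, without overlap (log2 change -0.26 ± 0.0730, adjusted p = 0.418). Gstm1, a glutathione transferase with close relatives, had -0.19 ± 0.0754. Of 19 circadian clock genes 12 were positive (median 0.02, or -0.04 without female 3 weeks replicate 3), and Ciart and Bhlhe40, both repressors within the clock, had -0.46 ± 0.166 and -0.28 ± 0.113. Of 17 immediate early genes 10 were negative (median -0.08), with Junb, a subunit of AP-1, at -0.58 ± 0.211. Their median was 0.07 without female 3 weeks replicate 3 and -0.19 without female 3 weeks replicate 2, so its sign rests on single libraries. The lists of heat shock proteins, unfolded protein response, hypoxia, cell cycle, Hedgehog response and methionine and folate had medians between -0.02 and 0.03. Of these, Hedgehog response had -0.02 and unfolded protein response 0.01 without female 3 weeks replicate 3.

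In the list of cytosolic ribosomal proteins all 58 tested members had a negative change, where 49.7% of all genes did, with a median of -0.15. The changes were small, and 2 of the 58 had an unadjusted p under 0.05 and 0 were called. The mean log2 CPM of the list ran from 6.31 to 6.67 at 5 weeks, against 6.54 to 6.82 at 3 weeks, so the groups overlapped. Rpl22, the gene that carries the tag, had 51.7, 54.4 and 66.1 CPM at 5 weeks, against 58.0, 62.7 and 73.3 CPM at 3 weeks (log2 change -0.19 ± 0.0763, adjusted p = 0.747). Rpl4, chosen after its values were seen, did not overlap, with 217 ± 7.11 CPM at 5 weeks and 241 ± 3.87 CPM at 3 weeks (SD, n = 6 each).

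The ribosomal median was -0.18 within females and -0.13 within males, and ran from -0.21 to -0.11 when 1 library was left out. In Input the median of the same 58 genes was -0.003. The 58 genes were read in the same libraries, so their signs are not independent, and many of these genes have processed copies elsewhere in the genome with which they may share reads.

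The 13 mitochondrially encoded genes had 12 negative changes and a median of -0.27, which became 0.04 without female 3 weeks replicate 3, the library with the highest share of such counts. They were lower in Trap than in Input by a median of -4.30. The part of RNA from other compartments in this list was not tested.

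RNA of other cell types reaches a pull-down in small amounts, and a lower level can come from fewer cells of a type or from less RNA per cell, which bulk libraries cannot tell apart. The summed level of 15 oligodendrocyte markers ran from 3381 to 5085 CPM at 5 weeks, against 2288 to 3963 CPM at 3 weeks. Of these 15, 14 changes were positive (median 0.30), with Ugt8a, an enzyme of myelin lipid synthesis, at 36.8 ± 6.83 CPM at 5 weeks and 22.9 ± 7.98 CPM at 3 weeks (SD, n = 6 each). Leaving out any 1 library gave medians of 0.17 to 0.42. Oligodendrocyte markers lay below Input by a median of -2.54 in Trap and had a median of 0.09 in Input.

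The 13 tested endothelial markers summed to 13.4 to 32.4 CPM at 5 weeks, against 10.5 to 22.4 CPM at 3 weeks, with 10 changes positive and a median of 0.34. Without female 5 weeks replicate 3 it was 0.02. Pecam1, an adhesion molecule of endothelium, had 1.22 ± 0.451 CPM at 5 weeks and 0.787 ± 0.287 CPM at 3 weeks (SD, n = 6 each). The 16 microglia markers summed to 112 to 130 CPM at 5 weeks, against 116 to 130 CPM at 3 weeks. Of their changes 12 were negative, with a median of -0.35, or -0.04 without female 3 weeks replicate 3. The microglia median was -0.48 within females and 0.04 within males. Tmem119, a surface protein of microglia, lay near the limit of counting, with 0.530 ± 0.227 CPM at 5 weeks and 0.969 ± 0.254 CPM at 3 weeks (SD, n = 6 each).

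The 7 tested Schwann cell markers, genes of peripheral nerve myelin, had 7 positive changes and a median of 0.37, or 0.08 without male 5 weeks replicate 3. Their sums ran from 1333 to 2124 CPM at 5 weeks, against 770 to 1711 CPM at 3 weeks. Mbp is in this list and in the oligodendrocyte list, so both sums hold its counts and the lists are not separate readings. The 10 tested blood cell markers ran from 548 to 2088 CPM at 5 weeks, against 335 to 1654 CPM at 3 weeks. They had 5 positive and 5 negative changes and a median of -0.17. Among them, S100a8 and S100a9, the calgranulins of neutrophils, stayed at or below 0.901 CPM for S100a8 and 0.951 CPM for S100a9 in every library of 5 weeks, and reached 10.7 and 9.69 CPM in female 3 weeks replicate 2.

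The 19 neuron markers had 11 positive changes and a median of 0.02, which was 0.29 without female 3 weeks replicate 3 and -0.12 without female 3 weeks replicate 2. The 9 oligodendrocyte precursor markers had 6 positive (median 0.14, and 0.04 to 0.26 with 1 library left out), with Olig1 and Olig2, transcription factors of the oligodendrocyte lineage that spinal astrocytes also express, on the negative side. Olig1 had 638, 723 and 817 CPM at 5 weeks, against 750, 871 and 1001 CPM at 3 weeks (log2 change -0.28 ± 0.0738, adjusted p = 0.407), and Olig2 had -0.39 ± 0.164. Mural, fibroblast and ependymal markers had medians of 0.07, 0.22 and -0.07. No marker of these 11 cell lists was at 0 in all 12 libraries. In a fit whose covariate was the level of markers of 4 other cell types (neurons, oligodendrocytes, microglia, endothelium) less that of astrocyte markers, 2 genes were called, Nnat and Tmem176a. In that fit 38 of the 40 list medians kept their sign, and all 40 moved by less than the SD between libraries of the list's score. The covariate was itself built from some of these lists, so the part of other cells in the list medians was not tested.

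**Figure D4:**
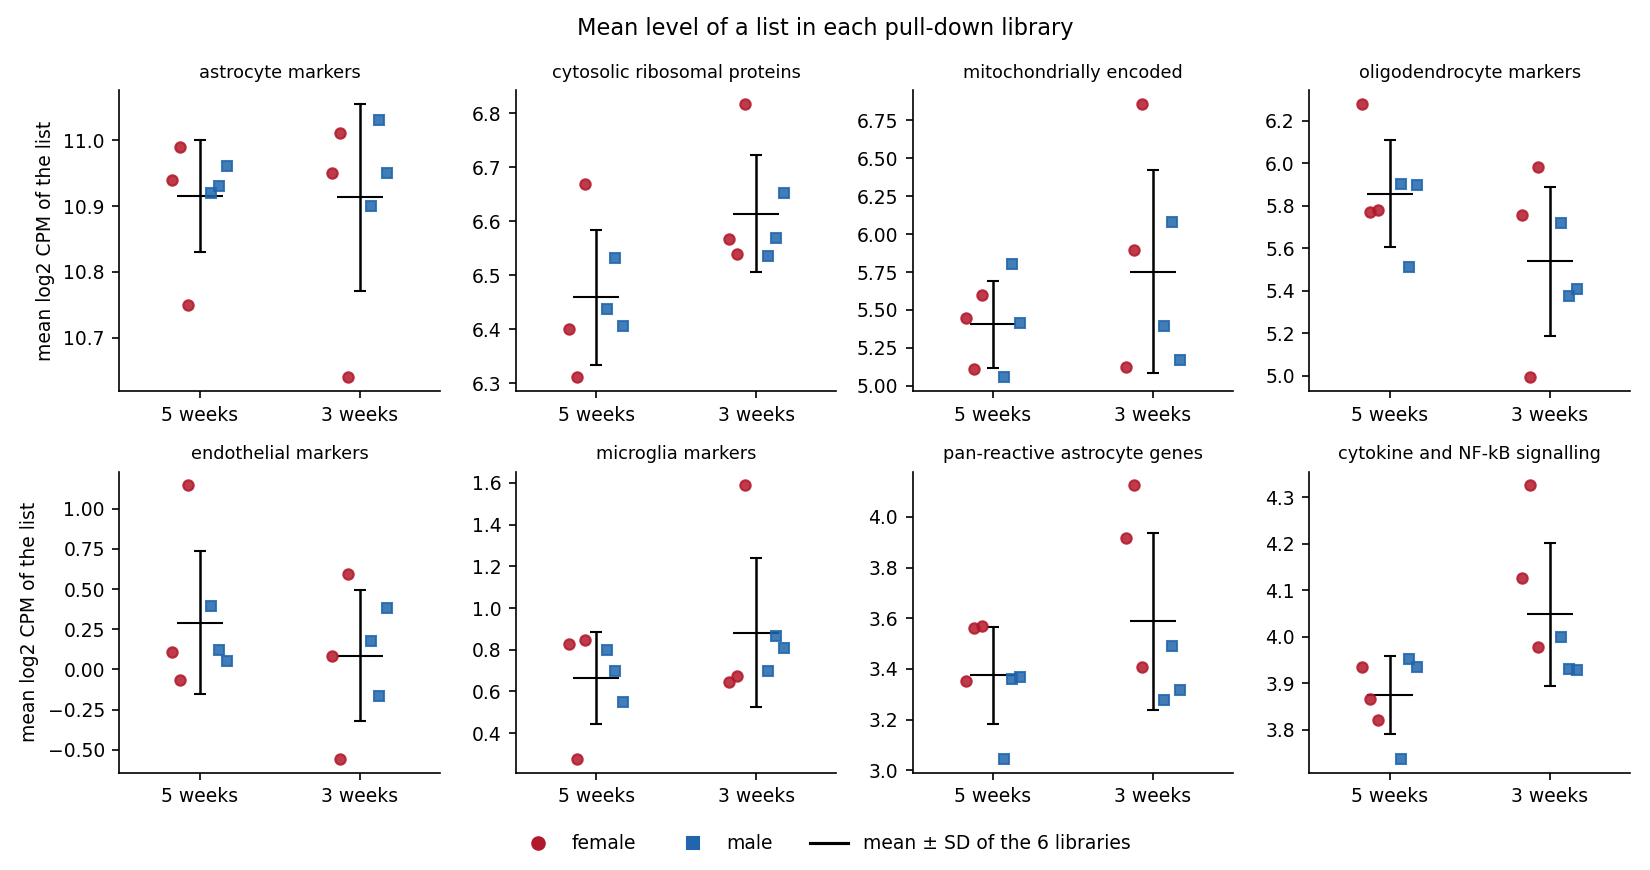
Mean log2 CPM of the genes of 8 lists (y axes, which do not start at 0) in each Trap library, with 5 weeks left of 3 weeks; circles are females, squares are males, lines are the mean ± SD of 6 libraries. The groups overlap in every panel shown, ribosomal proteins run from 6.31 to 6.67 at 5 weeks against 6.54 to 6.82 at 3 weeks, and the oligodendrocyte list reaches its lowest value, 4.99, at 3 weeks.

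**Figure D5:**
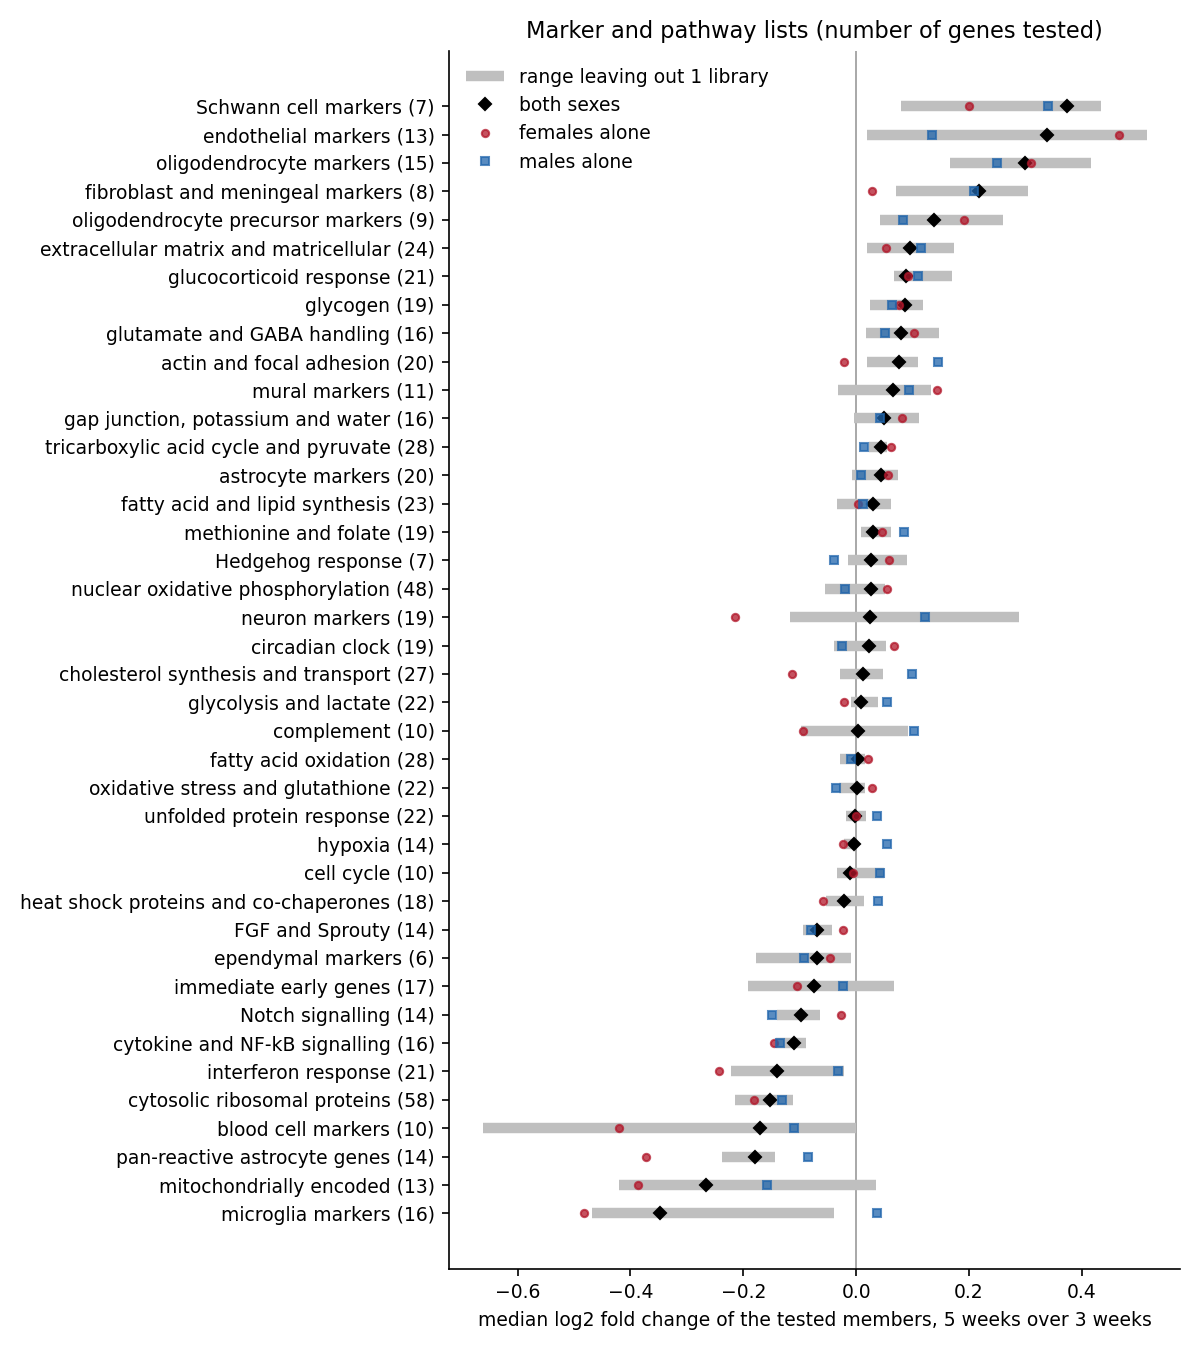
Median log2 fold change of 5 weeks over 3 weeks (x axis) for the tested members of 40 lists, with the number of genes tested; diamonds are both sexes, circles females alone, squares males alone, and grey bars the range of the median when 1 of the 12 libraries is left out. For both sexes together, cell marker lists lie at both ends, from 0.37 for Schwann cells to -0.35 for microglia, and metabolic lists lie between 0.003 and 0.09. Within males the microglia median is 0.04.

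Within the sexes the same fit called 0 of 15380 genes in females and 0 in males. At an unadjusted p under 0.05 there were 754 genes in females (4.9%) and 450 in males (2.93%), and DESeq2 called 5 in females and 1 in males. The test of the difference between the sexes called 0 genes (329, 2.14%, at an unadjusted p under 0.05; DESeq2 called 1). The sign of the change was the same in both sexes for 8741 genes (56.8%). Without female 3 weeks replicate 3 and female 5 weeks replicate 3, the libraries that stand apart, 7 genes were called in females and 4 in both sexes together. Without female 3 weeks replicate 3 alone it was 7 in females, and without male 7 weeks replicate 2, which enters through the shared spread, it was 2.

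Whole-cord Input RNA gives a second reading of the same times from 2 libraries each, 1 per sex. The labels do not say whether Input and Trap libraries came from the same animals, so agreement between them may not be independent. There 22 of 16803 genes were called (0.131%), 6 higher (0.0357%) and 16 lower (0.0952%) at 5 weeks, and 911 (5.42%) had an unadjusted p under 0.05. The fit had 3 residual degrees of freedom, and it called 11 genes without the female 3-week library and 13 without the female 5-week library. Nnat had 86.5 CPM in the female and 104 CPM in the male library of 5 weeks, against 113 and 127 CPM in those of 3 weeks. Its log2 change there, -0.34 ± 0.0759, was not called (adjusted p = 0.148). Tmem176a had 13.2 and 18.9 CPM at 5 weeks, against 20.6 and 22.9 CPM at 3 weeks (-0.45 ± 0.139, adjusted p = 0.554). Tmem176b had 30.5 and 39.1 CPM at 5 weeks, against 43.7 and 44.3 CPM at 3 weeks. For all 3 genes both libraries of 5 weeks were below both of 3 weeks.

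Of the 20 leading Trap genes, 16 had the same sign in Input, 9 of the 10 lower and 7 of the 10 higher, where 55.8% of the 14882 genes tested in both did. Among the genes called lower in Input, those of largest fold are described. Gal, the neuropeptide galanin, fell to 5.05 CPM in the female and 8.77 CPM in the male library of 5 weeks, against 14.1 and 19.6 CPM at 3 weeks (adjusted p = 0.000264). Pdyn, the precursor of dynorphin, fell to 19.0 CPM in the female and 27.9 CPM in the male library of 5 weeks, against 48.1 and 51.1 CPM at 3 weeks (adjusted p = 0.00842). Crh, corticotropin-releasing hormone, fell to 2.18 CPM in the female and 1.03 CPM in the male library of 5 weeks, against 5.72 and 4.90 CPM at 3 weeks (adjusted p = 0.00906). Atf3, a transcription factor of injured neurons, fell to 0.464 CPM in the female and 0.654 CPM in the male library of 5 weeks, against 1.69 and 4.73 CPM at 3 weeks (adjusted p = 0.0104).

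Sprr1a, a protein that injured neurons make as they regrow, had 0.0927 and 0.0545 CPM at 5 weeks, against 2.98 and 4.26 CPM at 3 weeks, and no fold is given at counts so low. On the higher side, the read assignment of 2 of the 6 called genes is uncertain. Pagr1a had 4.54 and 19.9 CPM at 5 weeks, against 0.0458 and 0.215 CPM at 3 weeks, and shares 1412 exon bases with Gm42742 on the same strand. A second Nnt identifier, ENSMUSG00000116207.1, had 8.20 and 4.30 CPM at 5 weeks, against 0 and 0 CPM at 3 weeks, and shares 3339 exon bases with the first, which had 12.1 and 14.9 CPM at 5 weeks, against 20.9 and 17.2 CPM at 3 weeks. Gpr17, a receptor of newly forming oligodendrocytes, rose to 66.6 and 61.2 CPM at 5 weeks, against 46.0 and 36.6 CPM at 3 weeks, and Tmem160, a mitochondrial protein, rose to 24.9 and 30.4 CPM, against 17.2 and 20.1 CPM. In Trap the log2 changes of Gpr17 and Tmem160 were 0.56 ± 0.318 and -0.22 ± 0.274, and neither was called there.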

How the data were processed

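The table that the authors deposited gives estimated counts from RSEM for 32 libraries and 55938 Ensembl genes, in which 6.21% to 8.53% of a library's values were not whole. Per the labels, poly-A RNA of homogenised lumbar spinal cord was sequenced, and per the submitters' processing notes FastQC, Trim Galore, STAR and RSEM were used with GRCm38. Versions, annotation release and the strand setting are not given in the sources used here. Reads that fit several similar genes are split among them by RSEM, so values of near-identical copies are uncertain.

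Rounded to whole numbers, they went into edgeR's quasi-likelihood test (edgeR 4.0.16, R 4.3.3), with TMM scaling, the filter filterByExpr, robust glmQLFit and 2-sided glmQLFTest, adjusted by Benjamini-Hochberg over all genes tested. A gene is called where its adjusted p is under 0.05. The 24 Trap libraries entered 1 fit with 8 means, of each sex in each state. It covered 15380 genes, left 16 degrees of freedom and had a median biological coefficient of variation of 0.138. The contrast was 5 weeks minus 3 weeks averaged over the sexes. The same fit gave each sex, their difference and each time against uninjured. Input was fitted with sex as an additive term (16803 genes), and Trap against Input over all 32 libraries (15913 genes). CPM values are TMM-scaled, and log2 changes carry the standard error of the fit. Total counts per library limit precision, since 1 CPM stands for about 18 counts. The scripts were tested on simulated data.

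The members and the 40 lists were chosen with earlier results of these data known. Of 738 listed genes 703 were tested. List scores are mean log2 CPM with a prior count of 2. The named genes were called genes (up to 15 each way by fold) with a mean of at least 1 CPM, the 10 of smallest p each way, up to 2 uncalled members of smallest p per list, called genes of Input and of 3 weeks against uninjured, and a panel of 13, leaving out unnamed models except where they are 1 of the 17 called at 3 weeks. Genes outside this rule are said to be so. Some genes the rule names are given only through their lists. Identifiers without a symbol, 797 in all, held 0.301% of counts. Positions are GENCODE M21 on GRCm38. Alternatives were other size factors, no filter, DESeq2 1.42.0, only 12 libraries, a carry-over covariate, a replicate block, additive sex, enriched genes only and leaving out libraries.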

Additional observations from a re-analysis of the deposited data

Results flagged for a closer look

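In 252 groups of 6 libraries (86 genes and 40 list scores at 5 and at 3 weeks), 28 had a library whose gap to the nearest of the others exceeded 0.625 of the group's range, Dixon's 95% critical value. Chance alone would mark about 1 in 20 groups if they were independent. They are not, since they share the same 12 libraries and some list scores hold genes examined singly. Many of the genes were also named for their values in these libraries. Female 5 weeks replicate 3 accounted for 11 of the 28 and female 3 weeks replicate 3 for 9, the same libraries that stood apart on the first principal component.

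Female 5 weeks replicate 3 was the outlying library of its time for Svil at 10.2 CPM, Stat3 at 108 CPM, Aldh1l1 at 543 CPM, Slc1a2 at 7532 CPM and Acsl3 at 1217 CPM, all the lowest, and for Rpl22 at 66.1 CPM and Hes5 at 8.06 CPM, both the highest. On the scale of mean log2 CPM it was lowest for astrocyte markers at 10.75, for gap junction, potassium and water genes at 9.26 and for glutamate and GABA handling at 8.65, and highest for mural markers at 2.52 (2.515 before rounding).

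Female 3 weeks replicate 3 was lowest of its time for Slc1a2 at 7501 CPM, Bcan at 1255 CPM and Abat at 1456 CPM. Its mean log2 CPM was lowest for astrocyte markers at 10.64, for gap junction, potassium and water genes at 9.12, for glutamate and GABA handling at 8.61, for Notch signalling at 5.16 and for Hedgehog response at 4.60, and highest for microglia markers at 1.59. In both libraries, then, the astrocyte lists are low by comparison with the other libraries of the same time.

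Female 3 weeks replicate 2 was highest of its time for the neutrophil genes S100a8 at 10.7 CPM and S100a9 at 9.69 CPM, and for Tlr2 at 13.3 CPM. Male 3 weeks replicate 2 was highest for Nes at 5.04 CPM (5.035 before rounding), and male 3 weeks replicate 3 was lowest for mural markers at a mean log2 CPM of 2.18. Female 5 weeks replicate 2 was highest for Itga11 at 2.50 CPM and for Hedgehog response at 5.32. Male 5 weeks replicate 3 was highest for Schwann cell markers at 5.04.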

How the results depend on the processing

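Against the 2 calls of 5 with 3 weeks in Trap, DESeq2 called 15, sex as an additive term 1, and 24 were called when male 7 weeks replicate 2 and female 3 weeks replicate 3 were left out together (6 higher, 18 lower). Leaving out 1 library gave 0 to 3. Chosen after seeing the data were the fits without female 3 weeks replicate 3 and female 5 weeks replicate 3, which called 4, and without male 7 weeks replicate 2, which called 2. In females, where none was called, there were 3 calls with no filter on low counts, 5 with DESeq2, 18 without male 7 weeks replicate 2 and female 3 weeks replicate 3, 7 without female 3 weeks replicate 3 and female 5 weeks replicate 3, 2 without male 7 weeks replicate 2, and 0 to 7 leaving out 1 library. DESeq2 called 1 gene in males and 1 for the sex difference, where there were 0. Input gave 22 calls, and 11 to 27 leaving out 1 library. As a pairing check, same-numbered libraries correlated at 0.00898 to 0.17, over 0.1 in 2 of 6 pairs, which is short of the over 0.1 in every pair set for treating the numbers as pairs. All 6 correlations were positive, 9 of 12 between unlike numbers were negative, and 10 of 12 libraries correlated best with their own number, a hint from the data. The values correlated were deviations from group means, so these counts depend on one another and are not separate hints. The table's column names carry such a number for part of the libraries, and what it marks is not given in the sources used here. With the replicate block, 5 genes were called in both sexes together and 9 in females, and with a replicate block within sex, 7 and 10. Gpx3 (edgeR adjusted p = 0.00867 and 0.0308) and Eln (0.0329 and 0.0308) were called with both blocks. Across 23 alternatives Nnat was called in 15 (log2 change -0.58 to -0.47) and Tmem176a in 12 (-0.57 to -0.48), and neither changed sign. Small changes near 0 reversed. Without male 7 weeks replicate 2 and female 3 weeks replicate 3, Syp had 0.036, Slc1a2 -0.047 and Aldh1l1 -0.057. Without female 3 weeks replicate 3 and female 5 weeks replicate 3, Syp had 0.0052 and Aldh1l1 -0.0006. Leaving out 1 library gave -0.28 to 0.036 for Syp, -0.13 to 0.024 for Blcap, -0.047 to 0.13 for Slc1a2 and -0.057 to 0.073 for Aldh1l1. The median of mural markers moved to -0.02, -0.03 and -0.03 without female 3 weeks replicate 2, female 5 weeks replicate 2 or male 5 weeks replicate 1. The causes were not tested. Of 880 list medians under the alternatives 877 moved by less than the SD between libraries of the list's score, but 86, in 19 lists, changed sign. Of the other values, 69 counts stayed within 1.5 times, 2737 single-gene changes kept their direction and side of the threshold, 36 single-gene changes became calls and 19 ceased to be calls.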

Other observations

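Some genes outside the rule for named genes, chosen after their values were seen, also had groups that did not overlap, which 75 of 15380 genes did (0.488%). None of those named next was called. Fibin, a secreted protein, averaged 68.6 ± 7.91 CPM at 5 weeks and 51.3 ± 5.16 CPM at 3 weeks (SD, n = 6 each), a log2 change of 0.42 ± 0.114. Ckap5, which promotes microtubule growth, averaged 234 ± 12 CPM at 5 weeks and 198 ± 6.84 CPM at 3 weeks, and Sdc2, a heparan sulphate proteoglycan of the cell surface, averaged 306 ± 16.9 CPM at 5 weeks and 264 ± 20.8 CPM at 3 weeks. Rcn2, a calcium-binding protein of the secretory pathway, averaged 1276 ± 18.1 CPM at 5 weeks and 1100 ± 106 CPM at 3 weeks. Itga11, a collagen-binding integrin, lay near the limit of counting with 1.29 ± 0.623 CPM at 5 weeks and 0.486 ± 0.231 CPM at 3 weeks.

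On the lower side, F2r, the thrombin receptor PAR1, averaged 4.65 ± 0.630 CPM at 5 weeks and 6.54 ± 0.647 CPM at 3 weeks (SD, n = 6 each), a log2 change of -0.48 ± 0.126. F11r, the junctional adhesion molecule A, averaged 7.76 ± 0.887 CPM at 5 weeks and 10.7 ± 1.18 CPM at 3 weeks (-0.46 ± 0.126). Marcksl1, which binds actin and calmodulin at the membrane, averaged 46.3 ± 7.00 CPM at 5 weeks and 59.0 ± 3.24 CPM at 3 weeks (-0.35 ± 0.124).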
